A study of Mus musculus with 12 samples.

Results

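SoxF genes encode 3 transcription factors, Sox7, Sox17 and Sox18, and their levels are described here across 4 cell types that were sorted from mouse embryos (E7.25). The 3 genes were chosen by name, with their levels in these libraries already known, from 38924 genes counted, and each was found once. Their levels and the differences between types are therefore given as a description, without a test. The embryos came from the line Foxa2Cre:Rosa26-YFP, in which Cre made under the control of Foxa2 switches on a yellow fluorescent protein (YFP), so that YFP marks cells with present or past Foxa2 expression. All 12 libraries came from this line. The types were YFP+ cardiac mesoderm (labelled ventricular), YFP- cardiac mesoderm (labelled non-ventricular), EPCAM+ endoderm and KDR+ hematopoietic mesoderm, with 3 libraries each. The labels do not say whether the replicates came from separate embryos or litters, so the p-values below measure only the spread between these libraries, which may be technical.

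SoxF proteins bind DNA through a high-mobility-group (HMG) box and turn on transcription through a domain near the carboxyl end. Sox17 is a regulator of definitive endoderm and is also made in visceral endoderm, in arterial endothelium and in hemogenic endothelium. Sox7 and Sox18 act in the forming blood vessels, where the 3 factors can partly stand in for one another, and Sox7 is also made in hemangioblasts, the mesoderm that gives rise to blood and endothelium, and in parietal endoderm.

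The genes lie on 3 chromosomes. In the GRCm38 assembly with GENCODE vM21 annotation, Sox7 (ENSMUSG00000063060.5) is at chr14:63943673-63950732 on the plus strand. Sox17 (ENSMUSG00000025902.7) is at chr1:4490931-4497354 and Sox18 (ENSMUSG00000046470.5) at chr2:181669836-181671640, both on the minus strand. The joint length of the annotated exons is 3299 bases for Sox7, 4772 for Sox17 and 1620 for Sox18. A noncoding gene on the opposite strand, Gm37587, overlaps 804 exon bases of Sox17. It has no row of its own among the counted genes, and since no source used here gives the strand setting, reads from it could not be told from reads of Sox17. The 3 genes are relatives, and the longest run of bases that 2 of their GENCODE vM21 transcripts had in common was 29, between Sox17 and Sox18. It was 22 between Sox7 and Sox17 and 20 between Sox7 and Sox18. The count tables hold reads with more than 1 alignment in a category of their own, outside the genes.

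Gene counts totalled 4472800 to 7888631 per library, and 3 counts in a library equalled 0.355 to 0.720 CPM (gene counts relative to the library's total after TMM scaling for composition). Kdr, the receptor used to sort the hematopoietic mesoderm, averaged 774 ± 163 CPM there (SD, n = 3), 538 ± 74.8 and 489 ± 48.4 in YFP+ and YFP- cardiac mesoderm and 10.4 ± 5.79 in endoderm. Epcam averaged 219 ± 18.4 in endoderm, and Pdgfra, a receptor of early mesoderm, 358 ± 14.0 and 306 ± 93.5 in YFP+ and YFP- cardiac mesoderm. Foxa2 read 0.415, 0 and 5.90 CPM in the YFP+ replicates and had no count in the YFP- ones. The embryonic globins Hbb-y and Hba-x had no count in hematopoietic mesoderm, and the troponin gene Tnnt2 had none in YFP+ cardiac mesoderm. Some libraries stood apart from the others of their type. In hematopoietic mesoderm, replicate 3 had 72.2 CPM of the epithelial cadherin gene Cdh1 against 1.92 and 2.93, and 415 of Hand1, a gene of lateral and cardiac mesoderm, against 47.3 and 81.1. In YFP+ cardiac mesoderm, replicate 2 had 174 CPM of Tal1, a regulator of blood and endothelial fate, against 13.7 and 21.9. Uneven replicates were common: of the genes that reached 100 counts in a library of a type, 9.30% had 3 counts or fewer in another library of that type in YFP+ cardiac mesoderm, 3.48% in YFP-, 0.518% in endoderm and 15.0% in hematopoietic mesoderm.

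Sox7 was the SoxF gene with the highest level in hematopoietic mesoderm. Its CPM there were 225, 336 and 393, from 938, 1946 and 1879 counts. The endoderm libraries read 7.28, 4.51 and 3.79 CPM. The YFP- cardiac libraries read 3.51, 0.838 and 1.59. All 3 hematopoietic libraries were thus far above the other 9. In YFP+ cardiac mesoderm the replicates disagreed, with 0.830, 20.9 and 0.738 CPM from 4, 115 and 4 counts. Only replicate 2 was clearly above the endoderm, and replicates 1 and 3 were the lowest of all 12 libraries. Type means were 318 ± 85.4 CPM in hematopoietic mesoderm, 7.49 ± 11.6 in YFP+ cardiac mesoderm, 5.19 ± 1.85 in endoderm and 1.98 ± 1.38 in YFP- cardiac mesoderm (SD, n = 3). The first of these stood apart beyond its spread, and it was 281 without hematopoietic replicate 3. The YFP+ mean differed from those of endoderm and YFP- cardiac mesoderm by less than its own spread, and without replicate 2 it was 0.784, the lowest of the 4.

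In log2 terms, Sox7 differed from hematopoietic mesoderm by -5.40 ± 1.08 (edgeR log2 fold change ± SE) in YFP+ cardiac mesoderm, -7.33 ± 1.20 in YFP- cardiac mesoderm and -5.94 ± 1.11 in endoderm. Without YFP+ replicate 2 the first of these was -8.63. The libraries did not overlap in any of these 3 pairs, which also holds for 14.0%, 18.6% and 34.3% of the 14170 genes tested in the same pairs. Sox7 was lower in YFP- cardiac mesoderm than in endoderm by -1.40 ± 0.99, again without overlap, as for 29.4% of genes. Between the cardiac fractions the value was 1.93 ± 1.00 in favour of YFP+, with overlapping libraries, and it turned to -1.30 without YFP+ replicate 2. Against endoderm the YFP+ value of 0.54 ± 0.94 turned to -2.69 in the same way. Bulk libraries cannot tell fewer Sox7-expressing cells from less Sox7 RNA per cell, and the same limit applies to each gene below.

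The YFP+ library with high Sox7 was also high in other genes of blood and vessel formation. The summed CPM of 34 endothelial and hemogenic genes was 1050, 1906 and 1044 in the 3 YFP+ replicates, against 4006 to 5519 in hematopoietic mesoderm. Runx1, which drives the start of blood formation, read 4.77, 96.2 and 22.9 CPM, Gata2, another blood regulator, 4.77, 73.6 and 15.1, and the endothelial surface gene Pecam1 0, 58.7 and 4.24. The list was not uniformly high in replicate 2: the endothelial cadherin gene Cdh5 stayed at 0.909 CPM, and 11 of the 34 genes had no count, the same number as in replicate 1. What part cells expressing these genes had in the Sox7 value was not tested.

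**Figure D1:**
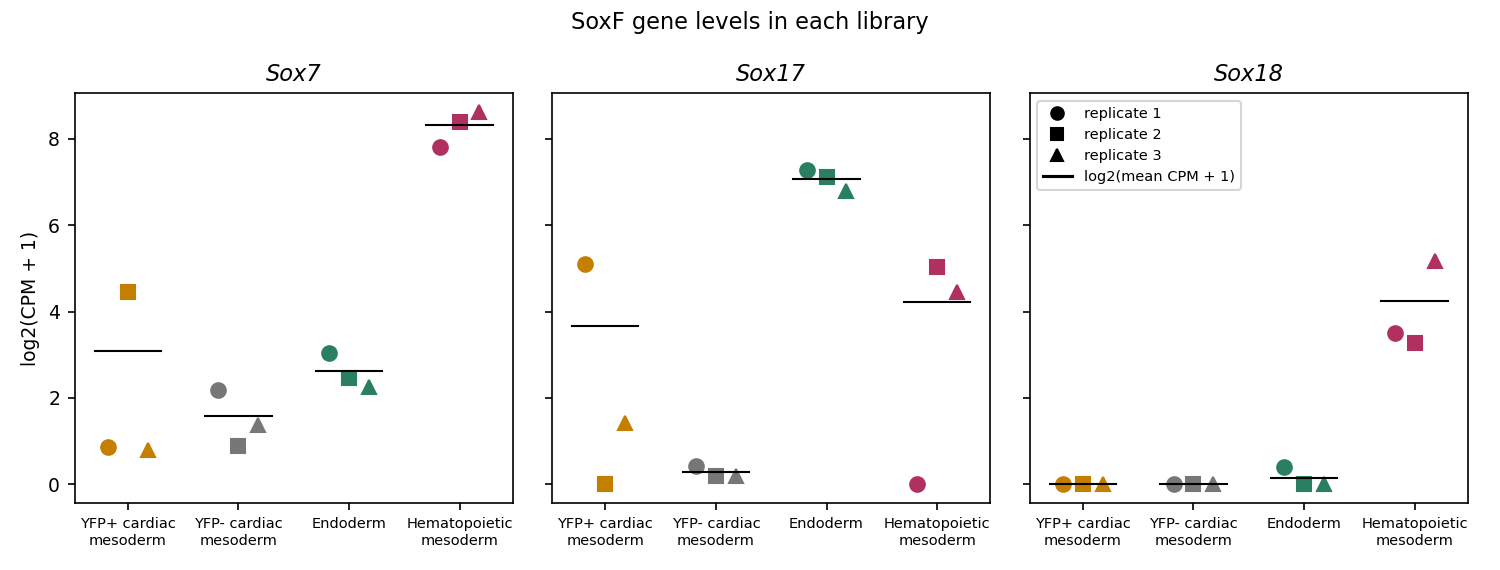
Level of each SoxF gene in every library, as log2(CPM + 1) on the vertical axis, by cell type on the horizontal axis (symbols, replicates 1 to 3; lines, the mean CPM on the same scale). Sox7 is high in all 3 hematopoietic libraries, Sox17 in all 3 endoderm libraries, and single YFP+ cardiac libraries rise to 20.9 CPM for Sox7 and 33.4 CPM for Sox17.

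Sox18 was found in the fewest libraries of the 3 genes, with counts in 4 of 12. No read was counted in any of the 6 cardiac libraries, and in endoderm replicate 1 held 2 counts while replicates 2 and 3 held 0. A count of 0 allows up to 0.545 to 0.623 CPM in the YFP+ libraries, 0.419 to 0.501 in the YFP- ones, and 0.387 and 0.355 in endoderm replicates 2 and 3. The hematopoietic libraries held 43, 50 and 167 counts, or 10.3, 8.63 and 35.0 CPM. Every hematopoietic library was above all 9 others, and replicate 3 stood above the other hematopoietic libraries. The hematopoietic mean was 17.97 ± 14.7 CPM (SD, n = 3), or 9.48 without replicate 3.

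Set against a floor of 3 counts in each library, the hematopoietic mean of Sox18 was at least 31.3-fold above YFP+ and 39.8-fold above YFP- cardiac mesoderm. These bounds are for the mean of 17.97 CPM. They are lower for the mean of 9.48 CPM without replicate 3. Against the 2 counts of endoderm the hematopoietic ratio was 199, with a 95% interval of 54.5 to 1650 from the exact binomial distribution. That interval covers counting error only, because the counts of each type were summed, and it leaves out the spread between libraries. Copies of 1 molecule made during amplification cannot be recognised in these reads and are not covered either. The low types cannot be ordered among themselves at this depth. Hematopoietic replicate 3, with the highest Sox18 and the highest Sox7, differed from the other hematopoietic libraries in its marker genes as well. Erg, an endothelial transcription factor, read 51.9, 97.2 and 0.837 CPM in replicates 1 to 3, the Notch receptor gene Notch4, which is typical of endothelium, 0, 2.59 and 147, and Cdh5 101, 159 and 145. The endothelial and hemogenic sum was 4006 in replicate 3 against 5305 and 5519, with 10, 8 and 5 of the 34 genes at 0 in replicates 3, 1 and 2. The part of these differences in the Sox18 value was not tested.

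Sox17 marked the endoderm, where the libraries read 154, 139 and 111 CPM from 976, 1075 and 935 counts. The YFP- cardiac libraries were near 0, with 0.334, 0.140 and 0.144 CPM from 2, 1 and 1 counts. In YFP+ cardiac mesoderm the values were 33.4, 0 and 1.66 CPM from 161, 0 and 9 counts. In hematopoietic mesoderm they were 0, 31.9 and 20.9 from 0, 185 and 100 counts. Sox17 was thus even across the endoderm libraries, while YFP+ cardiac and hematopoietic mesoderm each had 1 library without a single count. It was among the uneven genes described above in YFP+ cardiac and in hematopoietic mesoderm, but not in the other types.

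Type means of Sox17 were 135 ± 22.2 CPM in endoderm, 17.6 ± 16.2 in hematopoietic mesoderm, 11.7 ± 18.8 in YFP+ cardiac mesoderm and 0.206 ± 0.111 in YFP- cardiac mesoderm (SD, n = 3). Endoderm stood apart beyond the spread. The next types in the order did not differ beyond theirs, since the hematopoietic mean was 10.5 without replicate 2, below the YFP+ mean, and 15.97 without replicate 3, and the YFP+ mean was 0.830 without replicate 1. The log2 fold change of endoderm over hematopoietic mesoderm was 2.93 ± 1.57 and ranged from 2.35 without hematopoietic replicate 1 to 3.68 without replicate 2. YFP+ and YFP- cardiac mesoderm were lower than endoderm by -3.53 ± 1.62 and -9.24 ± 2.19, and the first was -7.31 without YFP+ replicate 1. No libraries overlapped in these pairs, as for 34.3%, 30.3% and 29.4% of genes. The summed Sox17 counts of YFP+ cardiac mesoderm exceeded those of the YFP- fraction by a ratio of 54.2 (95% interval from counting error, 20.8 to 201), but the libraries overlapped, as YFP+ replicate 2 held no read. The log2 fold change for that pair was 5.71 ± 1.96, or 1.94 without YFP+ replicate 1.

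**Figure D2:**
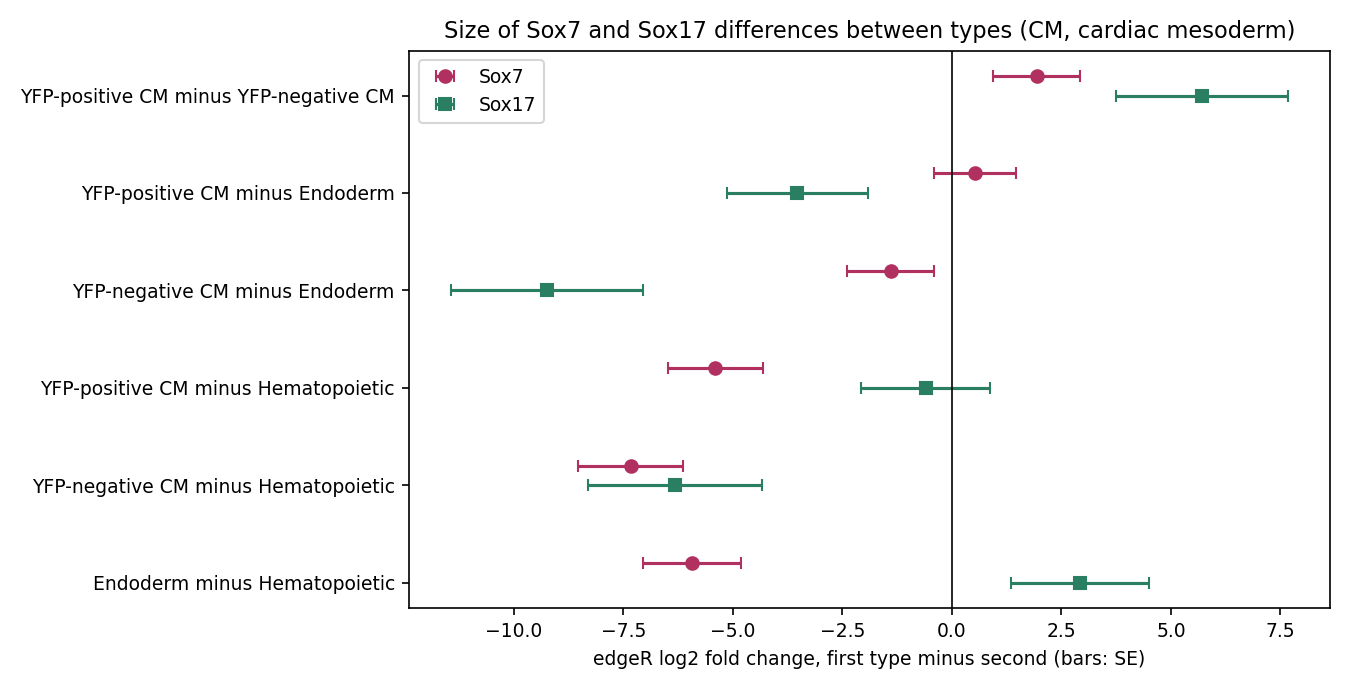
Difference of Sox7 and Sox17 between each pair of types, as the edgeR log2 fold change of the first type over the second on the horizontal axis (points) with its standard error (bars). Sox7 is between -7.33 and -5.40 in all 3 comparisons with hematopoietic mesoderm, and Sox17 is at -9.24 in YFP- cardiac mesoderm against endoderm. Sox18 is left out because it had no count in the cardiac types.

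Outside the endoderm, the libraries with the most Sox17 had some endoderm transcription factors near 0 and others at high levels. In YFP+ cardiac mesoderm, replicate 1, with most of the Sox17, read 0.415 CPM of Foxa2, 0 of Foxa1 and 0.623 of Hnf4a, 3 transcription factor genes of the endoderm that averaged 54.1 to 140 CPM in the endoderm libraries. The same library read 545 CPM of Lhx1, 487 of Eomes, 244 of Gata6 and 184 of Otx2, factors shared by endoderm and early mesoderm or its precursors, and the YFP- libraries had 237 to 367 of Lhx1 and 310 to 407 of Eomes. Replicate 3 had little Sox17 but more Foxa2, at 5.90 CPM, and more Cer1, which encodes a secreted antagonist made by anterior endoderm, at 67.5 against 31.1 CPM. The summed CPM of 25 endoderm genes was 2279, 1596 and 2745 in YFP+ replicates 1 to 3, with 4, 7 and 1 of the genes at 0. That of 21 extraembryonic endoderm genes was 2144, 1573 and 1206, with 3, 5 and 1 at 0. The largest parts of this sum in replicate 1 were Lamc1, Sparc and Lama1, at 401, 383 and 308 CPM. Apob, Cubn, Ttr and Afp of the same list read 8.72, 6.43, 1.04 and 0.623 CPM in that library. In hematopoietic replicates 2 and 3, which held the Sox17 of that type, Foxa2 read 0.173 and 0.209 CPM and Hnf4a the same. Other genes of the endoderm list were high there, with Hhex at 146 CPM in replicate 2 and with Mixl1 at 361, Eomes at 263, Gata6 at 171, Cdh1 at 72.2 and Epcam at 68.7 in replicate 3. In replicate 1, which had no Sox17 count, Hhex read 127 CPM, Mixl1 50.7, Eomes 49.2 and Gata6 71.6. The endoderm sum was 541, 507 and 1381 in hematopoietic replicates 1 to 3, with 5, 4 and 4 genes at 0. What part other cells had in these Sox17 values was not tested.

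**Figure D3:**
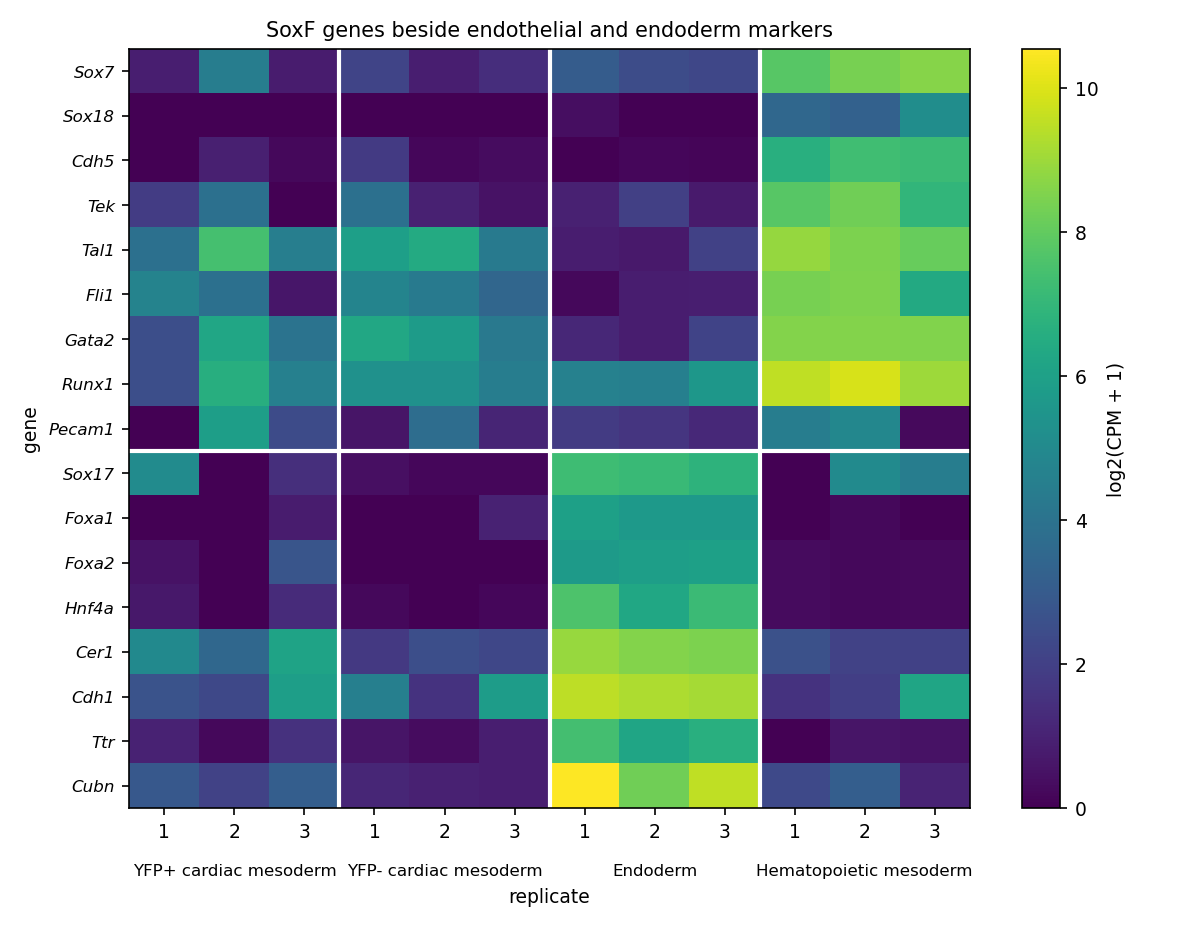
Levels of the SoxF genes beside endothelial and hemogenic genes (upper block) and endoderm genes (lower block) in the 12 libraries, with colour showing log2(CPM + 1). Sox7, Sox18 and Cdh5 are bright in the hematopoietic columns, Sox17 is bright with Foxa1, Foxa2 and Hnf4a in the endoderm columns, and the Sox17 of YFP+ replicate 1 and hematopoietic replicates 2 and 3 stands beside at most 0.623 CPM of each of those 3 genes. Other genes of the lower block are higher there, with Cer1 at 31.1 CPM in YFP+ replicate 1 and Cdh1 at 72.2 in hematopoietic replicate 3.

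To compare the 3 genes with one another, CPM were divided by exon length in kilobases. In hematopoietic mesoderm Sox7 averaged 96.4 ± 25.9 CPM per kb, Sox18 11.1 ± 9.09 and Sox17 3.69 ± 3.40 (SD, n = 3). Sox7 made up 82.1% to 91.5% of the length-scaled SoxF level in these libraries and Sox18 4.68% to 14.9%. In endoderm Sox17 averaged 28.2 ± 4.66 CPM per kb and Sox7 1.57 ± 0.559, so that Sox17 made up 93.1% to 95.5%. The leading gene was thus the same in every library of either type, and a different one in each. The YFP- cardiac libraries held 0.283 to 1.13 CPM per kb of all 3 genes together, 89.7% to 94.1% of it Sox7. These shares rest on 21, 6 and 11 Sox7 counts and 2, 1 and 1 Sox17 counts. In YFP+ cardiac mesoderm the leading gene changed with the library. Sox17 made up 96.5% of 7.255 CPM per kb in replicate 1, Sox7 was all of 6.34 in replicate 2, and Sox17 was 60.9% of the 0.572 in replicate 3. The last share rests on 9 Sox17 and 4 Sox7 counts, so the order in that library is uncertain.

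**Figure D4:**
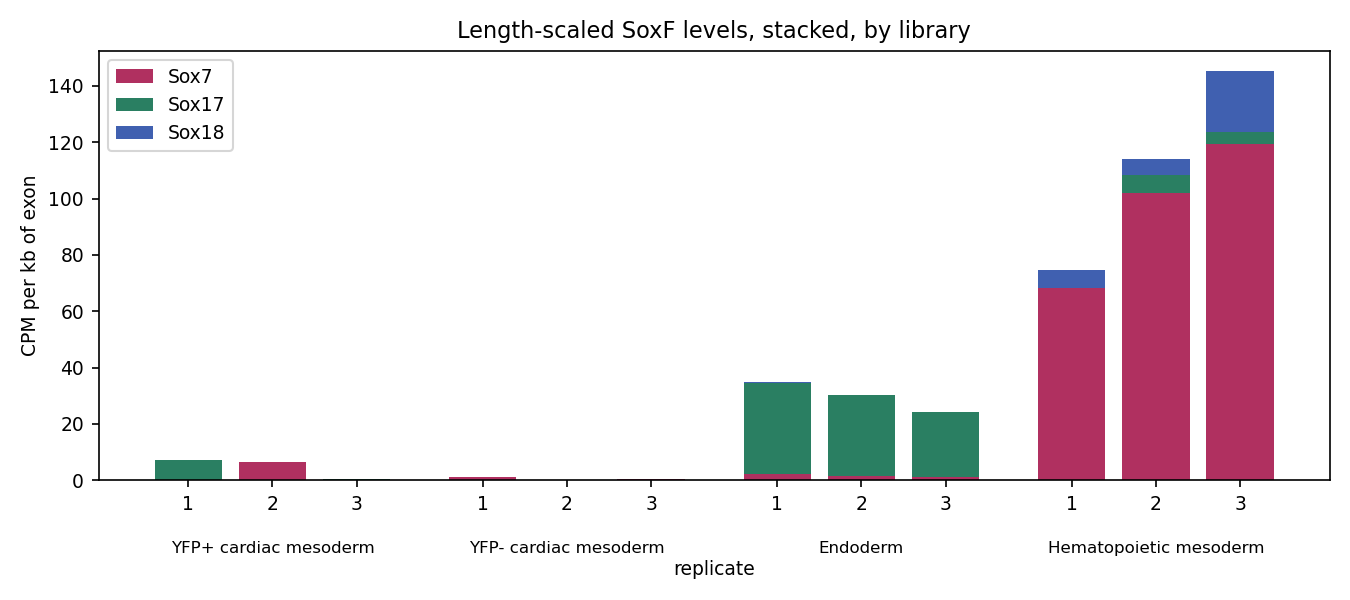
Length-scaled level of the 3 SoxF genes in each library, in CPM per kb of exon, stacked and grouped by cell type. The hematopoietic bars reach 74.6 to 145 and are mostly Sox7, the endoderm bars reach 24.3 to 34.8 and are mostly Sox17, and the cardiac bars are at most 7.255.

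Some endothelial and hemogenic genes, which mark the cells in which Sox7 and Sox18 are known to act, were lower outside hematopoietic mesoderm. Of the 34 genes of the list, 26 were tested. In YFP+ cardiac mesoderm 7 were lower at an edgeR adjusted p under 0.05 and none higher, where 1.79% of all genes passed, 0.635% lower and 1.15% higher. The median log2 fold change was -2.81, against 0.03 over all genes. In YFP- cardiac mesoderm 4 were lower and none higher, where 0.593% of all genes passed (0.191% lower, 0.402% higher), with a median of -2.82 against 0.02. In endoderm 13 were lower and none higher, where 5.65% of all genes passed (2.42% lower, 3.23% higher), with a median of -4.48 against 0.07. In fits of only the 2 types compared the counts were 1, 1 and 14, and DESeq2 called 15, 13 and 19. Between the cardiac fractions none of the 26 passed, 3 had an unadjusted p under 0.05 and DESeq2 called 1, where 0% of all genes passed.

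Cdh5, the cadherin of endothelial junctions and a known target of SoxF factors, averaged 135 ± 30.5 CPM in hematopoietic mesoderm and at most 0.978 ± 1.33 in the other types. Its log2 fold change was -8.43 ± 1.33 in YFP+ cardiac mesoderm (edgeR adjusted p = 0.00962) and -10.29 ± 1.46 in endoderm (adjusted p = 0.00191), and both calls held when any 1 library was left out. In YFP- cardiac mesoderm it was -7.11 ± 1.24 (adjusted p = 0.0283). That call was lost without YFP- replicate 2 or 3 (adjusted p = 0.105 and 0.116) and in a fit of only these 2 types (0.0898). Like those of Sox18, the Cdh5 values of the hematopoietic libraries, at 101 CPM and above, lay over all 9 others, which were at most 2.51. Fli1, an ETS factor of blood and vessels, was lower in endoderm by -8.69 ± 1.25 (edgeR adjusted p = 0.00202) and Tal1 by -7.87 ± 1.13 (adjusted p = 0.00202), and both calls also held when any 1 library was left out. Erg had no count in endoderm, and its hematopoietic mean was at least 123-fold above the floor of 3 counts there. Hematopoietic replicates 1 and 2 carried that mean, as replicate 3 read 0.837 CPM. The Erg call (edgeR adjusted p = 0.0444) was lost without any single endoderm library or without hematopoietic replicate 1 or 2 (adjusted p = 0.0673 to 0.15). Lyl1 and Lmo2, partners of Tal1 in blood progenitors, were lower in YFP+ cardiac mesoderm by -8.22 ± 1.70 and -5.46 ± 1.16 (edgeR adjusted p = 0.0358 and 0.0392). Fli1 was lower there by -4.31 ± 0.99 (adjusted p = 0.0481). These 3 calls were all lost without YFP+ replicate 1 (adjusted p = 0.0513, 0.0588 and 0.0598) or replicate 3 (0.0874, 0.0874 and 0.0519), those of Lyl1 and Fli1 without replicate 2 (0.0786 and 0.107), and those of Lmo2 and Fli1 without hematopoietic replicate 1 (0.0723 and 0.103) or 2 (0.0522 and 0.0743). In the YFP- fraction Egfl7, which encodes a secreted vascular protein, Runx1 and the VEGF receptor gene Flt1 were lower by -4.54 ± 0.81, -4.46 ± 0.79 and -2.37 ± 0.44 (edgeR adjusted p = 0.0301, 0.029 and 0.034). Each of these calls was lost without any single YFP- library, and those of Egfl7 and Flt1 also without hematopoietic replicate 1 (adjusted p = 0.0794 to 0.15).

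Endoderm genes made up the next list, with 23 of 25 tested. Compared with endoderm, 6 were lower and 1 higher in YFP+ cardiac mesoderm, where 1.54% of all genes passed (0.586% lower, 0.953% higher), and 8 were lower and none higher in YFP- cardiac mesoderm, where 1.31% passed (0.600% lower, 0.706% higher). The medians were -3.48 and -3.73, against 0.01 over all genes in both. Against hematopoietic mesoderm 10 were higher in endoderm and none lower, where 3.23% of all genes were higher and 2.42% lower, with a median of 4.33 against 0.07. DESeq2 called 13, 14 and 16 in these pairs, and fits of only the 2 types 12, 15 and 11. Hnf4a, a nuclear receptor gene of visceral and later of hepatic endoderm, was lower by -7.60 ± 1.09 in the YFP+ fraction (edgeR adjusted p = 0.00313) and by -10.17 ± 1.26 in the YFP- fraction (adjusted p = 0.00115), and both calls held when any 1 library was left out. Trh, which encodes thyrotropin-releasing hormone and is made in early definitive endoderm, was lower by -7.04 ± 1.23 in the YFP+ fraction (edgeR adjusted p = 0.0114, lost without YFP+ replicate 1 or 2 or endoderm replicate 1 at 0.0571 to 0.0699) and by -8.95 ± 1.36 in the YFP- fraction (adjusted p = 0.00472, held without any 1 library). Prdm1, a repressor gene of endoderm and germ cells, was lower by -6.48 ± 1.33 in the YFP+ fraction (edgeR adjusted p = 0.0284), a call lost without any 1 library of the pair (adjusted p = 0.0777 to 0.117). Foxa2 was at least 127.5-fold lower in YFP- cardiac mesoderm than in endoderm. The sort for YFP- cells favours this in advance, since YFP marks cells with present or past Foxa2 expression. The Foxa2 call (edgeR adjusted p = 0.0233) was lost when any 1 library of the pair was left out (adjusted p = 0.0807 to 0.105). The gene that went the other way was Gata4, which encodes a factor of both heart and endoderm, higher in the YFP+ fraction by 1.66 ± 0.31 (edgeR adjusted p = 0.0161). That call was lost without YFP+ replicate 3 (adjusted p = 0.0598) or endoderm replicate 2 or 3 (0.115 and 0.111).

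The endoderm libraries also held genes of extraembryonic endoderm, in which Sox17 and Sox7 are known to be made. The summed CPM of the 21-gene list was 7402, 3258 and 4751 in endoderm replicates 1 to 3, and at most 2144 in any other library. Apob and Cubn, which serve lipid transport and nutrient uptake in visceral endoderm, averaged 1672 ± 760 and 846 ± 598 CPM there. Of the 20 genes tested, 7 were lower in YFP+ and 6 in YFP- cardiac mesoderm than in endoderm and 7 were higher in endoderm than in hematopoietic mesoderm by edgeR, with none in the opposite direction. Of all genes 0.586% and 0.600% were lower in those fractions and 3.23% higher in endoderm. The list's medians were -3.09, -2.04 and 2.25, against 0.01, 0.01 and 0.07 over all genes. Thbd, a marker of parietal endoderm, averaged 3.58 ± 2.76 and Plat, another, 5.73 ± 4.17. Pth1r of the same list averaged 19.1 ± 7.84 CPM in endoderm and 36.7 ± 28.7 in YFP+ cardiac mesoderm. Endoderm replicate 1, with the highest extraembryonic sum, also had the highest Sox17 and the highest Sox7 of the 3 endoderm libraries, while replicates 2 and 3 had these sums and Sox17 levels in opposite order. How far Sox17 came from embryonic and how far from extraembryonic endoderm was not tested.

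Known partners and target genes of SoxF factors were followed as a group of 30, of which 26 were tested. In at least 1 of the 6 pairs 13 of them passed, as did 6.82% of all genes. The list holds genes of vessels and of endoderm, and its median log2 fold changes ran from -0.17 in endoderm against hematopoietic mesoderm to 0.96 in YFP+ cardiac mesoderm against endoderm. Between the cardiac fractions none passed, 3 had an unadjusted p under 0.05 and DESeq2 called 1. Against endoderm, 5 were higher and 1 lower in YFP+ cardiac mesoderm, and 4 were higher and 2 lower in YFP- cardiac mesoderm. Of all genes 0.953% were higher and 0.586% lower in the first pair, and 0.706% and 0.600% in the second. Against hematopoietic mesoderm, 1 was higher and 4 lower in the YFP+ fraction and 1 higher and 3 lower in the YFP- fraction, where 1.15% and 0.635% of all genes, and 0.402% and 0.191%, were higher and lower. Fits of only the 2 types called 1 gene in each of those last comparisons, and DESeq2 11 and 9. The gene that was higher in both was Mesp1, the early cardiac mesoderm factor, by 6.94 ± 1.43 and 7.35 ± 1.46 (edgeR adjusted p = 0.0356 and 0.0415). Its calls were lost without hematopoietic replicate 1 or 2, without YFP+ replicate 2 or 3 and without any YFP- library (adjusted p = 0.0511 to 0.141). In endoderm 3 were higher and 8 lower than in hematopoietic mesoderm, as were 3.23% and 2.42% of all genes.

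Several of these genes were higher in both cardiac fractions, where SoxF levels were low, than in endoderm. Kdr, a VEGF receptor gene of mesoderm and endothelium, was higher than in endoderm by 5.69 ± 0.37 in the YFP+ and by 5.55 ± 0.37 in the YFP- fraction (edgeR adjusted p = 5.04e-06 and 4.74e-06), and both calls held when any 1 library was left out. Kdr was also a marker of the sort, so these differences may not be independent of it. Etv2, the ETS factor at the start of the blood and vessel lineage, averaged 34.0 ± 31.0 and 49.3 ± 13.3 CPM in the YFP+ and YFP- fractions, 34.3 ± 7.37 in hematopoietic mesoderm and 0.692 ± 0.425 in endoderm. It was higher than in endoderm by 5.59 ± 0.98 and 6.13 ± 1.00 (edgeR adjusted p = 0.0114 and 0.00797), calls that were lost without endoderm replicate 2 (adjusted p = 0.086 and 0.0601) or 3 (0.0877 and 0.0707) and, for the YFP+ fraction, without endoderm replicate 1 (0.063). Mean Etv2 thus lay between 34.0 and 49.3 CPM in the 3 mesoderm types, over which mean Sox7 ran from 1.98 to 318, and the log2 fold change of Etv2 between YFP+ cardiac and hematopoietic mesoderm was -0.01 ± 0.79. Ets1, another ETS factor, was higher than in endoderm by 3.21 ± 0.54 and 3.98 ± 0.55 in the YFP+ and YFP- fractions (edgeR adjusted p = 0.00837 and 0.00293), the first call being lost without endoderm replicate 1 or 3 (0.0659 and 0.0716). Its mean was highest in hematopoietic mesoderm, at 247 ± 96.2 CPM, against 52.6 ± 32.9 in the YFP+ and 89.6 ± 32.3 in the YFP- fraction. Ets1 was also called lower in the YFP+ fraction than in hematopoietic mesoderm. That call was lost without YFP+ or hematopoietic replicate 1 or 2 (edgeR adjusted p = 0.0599 to 0.116). Notch1, which encodes a receptor that acts with SoxF factors in arteries, was higher than in endoderm by 2.48 ± 0.43 and 2.59 ± 0.43 in the YFP+ and YFP- fractions (edgeR adjusted p = 0.0111 and 0.00889), calls lost without endoderm replicate 2 (0.0785 and 0.0606) or 3 (0.0851 and 0.0707). Among receptors, Tek, an angiopoietin receptor gene, read 220, 301 and 122 CPM in hematopoietic mesoderm and was lower in endoderm by -7.10 ± 1.62 (edgeR adjusted p = 0.0273), a call lost without any single endoderm library or hematopoietic replicate 1 (adjusted p = 0.0528 to 0.127). Among other vascular targets, Flt4 averaged 215 ± 26.2 CPM in hematopoietic mesoderm, Egfl7 133 ± 104, Prox1 106 ± 59.4 and Rasip1 60.1 ± 57.9. Means in the other types were 18.1 to 32.0 for Flt4, 5.69 to 14.8 for Egfl7, 40.3 to 69.9 for Prox1 and 3.76 to 9.81 for Rasip1. Prox1 in hematopoietic replicate 3, at 44.0 CPM, was below every endoderm library. Rasip1 read 8.40, 49.4 and 123 in the hematopoietic replicates, the first below YFP- replicate 1 at 20.2. Tie1 read 43.2, 19.9 and 0 CPM in the replicates of that type. A few targets were absent or nearly so. Cldn5 reached 1.17 CPM in 1 YFP- library and was at most 0.240 elsewhere, Vcam1 had no count in any library, and Dll4 had counts in endoderm replicate 3 only, at 0.710 CPM. Ctnnb1, which encodes beta-catenin, a protein that SoxF factors can bind, averaged 353 to 398 CPM in the 4 types.

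The other 17 Sox genes of the list give the family setting, and 12 of them passed the expression filter. None passed the edgeR test in any of the 6 pairs, where 6.82% of all genes passed in at least 1. Of the 12, 11 had an unadjusted p under 0.05 in at least 1 pair. Over all 14170 genes tested, 1062 to 3234 had such a p in a single pair. DESeq2 called 7 of the 12, and 117 to 1902 of all genes in a single pair. Fits of only the 2 types compared called 5 of the 12, so that the 0 does not show that these Sox genes were alike. The SoxC genes Sox11 and Sox12, which are common in embryonic tissue, were present in every library. Sox11 averaged 46.999 ± 10.7 to 91.8 ± 19.8 CPM and Sox12 51.5 ± 7.86 to 62.7 ± 12.01 in the 4 types. Sox4, the third of that group, averaged 31.0 ± 7.50 in endoderm and 3.07 ± 2.42 in hematopoietic mesoderm. Of the SoxE genes, Sox9 was at 117 ± 69.6 CPM in YFP+ and 64.0 ± 29.2 in YFP- cardiac mesoderm and 29.1, 1.73 and 1.05 in the hematopoietic replicates. Sox8 read 21.0, 1.82 and 31.0 in the YFP+ replicates and averaged 0.827 ± 0.392 in hematopoietic mesoderm. Sox13, a SoxD gene, read 5.19, 3.09 and 2.58 in the YFP+ replicates and 8.02, 67.1 and 32.8 in the YFP- ones. Its log2 fold change between these fractions was -3.31 ± 0.88 (edgeR adjusted p = 0.626). The SoxB gene Sox2, a gene of pluripotent and neural cells, averaged 10.9 ± 4.83 in endoderm and had no count in YFP+ cardiac or in hematopoietic mesoderm.

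**Figure D5:**
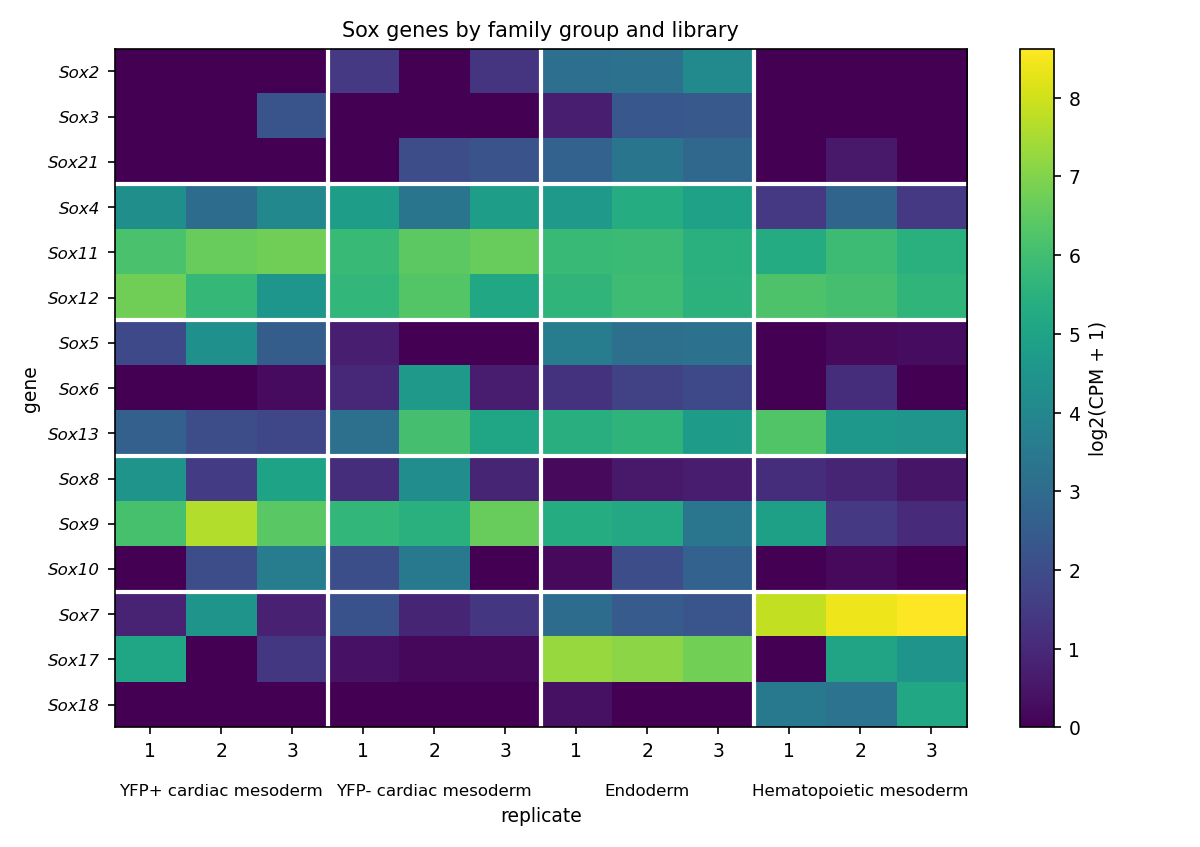
Levels of 15 Sox genes in the 12 libraries, in blocks from top to bottom for SoxB, SoxC, SoxD, SoxE and SoxF, with colour showing log2(CPM + 1). The SoxF rows at the bottom are bright in the hematopoietic columns (Sox7) and the endoderm columns (Sox17), while Sox11 and Sox12 have counts in every column.

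The genes most like each SoxF gene in pattern were taken by Pearson correlation of log2(CPM + 1) over the 12 libraries among 10405 genes. These correlations are given as a description, since the libraries of a type share their cell type. For Sox7 they were Gngt2, Cdh5, Nrip3, Runx1 and Tek, with r from 0.934 to 0.958. For Sox18 they were Ptpn7, Ripor2, Cdh5, Gngt2 and Grm6, with r from 0.942 to 0.984, so Cdh5 and Gngt2 stood in both lists. Ptpn7, a phosphatase gene of blood cells, read 30.3, 12.1 and 42.3 CPM in the hematopoietic replicates. It was, like Sox18, highest in replicate 3, which its choice for likeness favours. For Sox17 they were Dpp4, H2-K1, Large2, Pcbd1 and Pax7, with r from 0.894 to 0.980. Dpp4, a membrane peptidase gene, read 185, 50.1 and 70.0 CPM in endoderm. Outside it Dpp4 followed the uneven Sox17 pattern, with 13.7, 0.727 and 1.11 in the YFP+ replicates and 0.240, 15.2 and 12.6 in the hematopoietic ones. Pcbd1 read 47.9, 0 and 0.553 in the YFP+ replicates, and Pax7 12.5, 0.545 and 0. The library with high Sox17 was thus the highest of the YFP+ replicates for these 3 genes as well, which their choice for likeness favours.

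The nearest protein-coding neighbours did not share the SoxF patterns. Pinx1, 23814 bases from Sox7, averaged 63.8 ± 4.81 CPM in endoderm and 86.6 ± 36.8 in hematopoietic mesoderm, where Sox7 differed most. Mrpl15, 275852 bases from Sox17, averaged 108 ± 23.3 in endoderm and 133 ± 29.0 in YFP- cardiac mesoderm. Tcea2, 8670 bases from Sox18, averaged 0.0800 ± 0.139 in hematopoietic mesoderm, where Sox18 was found, and 4.47 ± 3.64 in endoderm. The neighbours on the other side of Sox7 and Sox17 were at most 0.140 CPM (4930578I06Rik) and 0.773 CPM (Rp1) in any library, and that of Sox18, Gm29797, was not analysed here.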

How the data were processed

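RNA from 12 sorted cell samples was purified with the Agilent Absolutely RNA nanoprep kit and made into libraries with NuGEN kits (Ovation Ultralow V2, among others), per the labels' protocols. The deposited values are whole, unnormalized counts of reads per gene for 38924 genes, made by the authors. The submitters' processing notes name STAR 2.5.0a, Picard, HTSeq 0.6.0, DESeq2 and the build mm10. The annotation and the strand setting are not given in the sources used here. The 5 summary categories of each table were left out, so that genes held 18.26% to 21.52% of tallied reads, and symbols were matched for 37607 genes.

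Counts were fitted with edgeR 4.0.16 in R 4.3.3 (TMM scaling, filterByExpr, which kept 14170 genes including all 3 SoxF genes, quasi-likelihood test, all 12 libraries, 8 residual degrees of freedom). The 6 pairs of types were tested two-sided with Benjamini-Hochberg adjustment over all genes, and an adjusted p under 0.05 was called. CPM use gene totals times TMM factors (0.915 to 1.07). Intervals and floors cover counting error only. The procedure was tested on simulated data. Alternatives were DESeq2 1.42.0, RLE scaling, no expression filter, a block for the replicate number, fits of only the 2 types compared and leaving out each library.

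The genes and the gene lists, compiled from general knowledge, were chosen with earlier results of these data known. Named list genes are up to 4 per direction and comparison by size of fold change among those called whose libraries did not overlap and whose mean reached 10 CPM in the higher type. Other Sox genes with a mean of at least 10 CPM in a type, the 5 genes most alike in pattern and the nearest coding neighbours were named as well. Genes named beside these to describe single libraries, other markers and targets were chosen after their values were seen. Some genes that the rule names are not reported here.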

Additional observations from a re-analysis of the deposited data

How the results depend on the processing

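The levels of the SoxF genes moved mainly with single libraries. Without 1 library, Sox7 ranged from 0.784 to 10.9 CPM in YFP+ and 1.21 to 2.55 in YFP- cardiac mesoderm, 4.15 to 5.90 in endoderm and 281 to 365 in hematopoietic mesoderm. Sox17 ranged from 0.830 to 17.5, 0.142 to 0.239, 125 to 147 and 10.5 to 26.4 in the same order, and Sox18 from 9.48 to 22.6 in hematopoietic mesoderm. RLE scaling kept all 12 levels within their spread. Small libraries of amplified RNA limit what a low count can show: SoxF values under 3 counts carry no order.

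The number of genes called was sensitive to the tool. DESeq2 called 117 genes between the cardiac fractions, 929 and 605 in YFP+ and YFP- cardiac mesoderm against endoderm, 1509 and 1079 in those fractions against hematopoietic mesoderm and 1902 for endoderm against hematopoietic mesoderm, where edgeR called 0, 218, 185, 253, 84 and 800. Fits of only the 2 types called 1063, 1360, 13, 10 and 1258 in the last 5 of these. Without the expression filter 2 genes were called between the cardiac fractions and 174 between YFP- cardiac and hematopoietic mesoderm. Leaving out 1 library gave 0 to 1, 71 to 159, 69 to 100, 106 to 426, 16 to 247 and 180 to 976 genes.

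For the lists, endothelial and hemogenic genes called in YFP+ and YFP- cardiac mesoderm against hematopoietic mesoderm were 11 and 8 without the filter, 15 and 13 by DESeq2 and 1 and 1 in fits of only the 2 types. Without 1 library they were 2 to 10 and 0 to 7, and 6 to 15 in endoderm. Endoderm genes called in YFP+ and YFP- cardiac mesoderm against endoderm were 13 and 14 by DESeq2 and 12 and 15 in fits of only the 2 types, with 11 for the YFP+ fraction without the filter, and DESeq2 called 16 between endoderm and hematopoietic mesoderm. Without 1 library they were 3 to 6, 5 to 6 and 6 to 15. SoxF partners and targets called in any pair were 7 to 17 without 1 library, and other Sox genes 0 to 1, or 7 by DESeq2 and 5 in fits of only the 2 types.

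The labels give all types the same replicate numbers. Same-numbered libraries carry one date-like string per number in their file names, whose meaning is not stated, and their deviations from the type means correlated at 0.0146 on average (-0.0151 to 0.0371 over 18 pairs). The numbers were therefore not taken to pair the libraries. A library correlated best with its own number in 27 of 36 comparisons with another type, a hint from the data and not from the design. With the replicate number as a block, 133 genes were called in YFP+ and 31 in YFP- cardiac mesoderm against hematopoietic mesoderm, with 4 and 0 endothelial and hemogenic genes, 2 and 0 SoxF partners and targets and 3 and 1 cardiac mesoderm genes. Of the calls reported for single genes, those lost under the block were of Cdh5, Egfl7, Runx1, Flt1 and Mesp1 in YFP- and of Lyl1 and Mesp1 in YFP+ cardiac mesoderm against hematopoietic mesoderm, and of Erg in endoderm (edgeR adjusted p = 0.0508 to 0.0847).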

Other observations

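Of 20 cardiac mesoderm genes, all tested, some were higher in the cardiac fractions. Against endoderm 8 were higher in YFP+ and 6 in YFP- cardiac mesoderm, and against hematopoietic mesoderm 5 and 3, with none lower (edgeR adjusted p under 0.05). Of all genes 0.953%, 0.706%, 1.15% and 0.402% were higher in these pairs. The counts against hematopoietic mesoderm were 13 and 9 by DESeq2 and 0 and 0 in fits of only the 2 types. Their summed CPM was 712, 726 and 1733 in hematopoietic replicates 1 to 3, with 6 of the 20 genes at 0 in each. Primitive erythroid genes, a list of 10 with 3 tested, summed to 106, 95.1 and 5.23 CPM in those replicates, with 5, 4 and 8 at 0. Gata1, the main regulator of erythroid cells, read 74.0, 46.4 and 0.209 CPM there. None of the 3 tested passed in any pair by edgeR, while 2 had an unadjusted p under 0.05 in at least 1 pair and DESeq2 called 2.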
